A study of Mus musculus with 6 samples.

Results

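Presentation of intracellular peptides on MHC class I was followed through 9 genes in spinal cord immune cells of mice of 2 ages with experimental autoimmune encephalomyelitis (EAE), and in microglia of naive mice. The genes were chosen by name, with earlier results of these data known. They are the heavy chains H2-K1 and H2-D1, the further heavy chains H2-Q7 and H2-T23, the light chain B2m, the transporter subunits Tap1 and Tap2, tapasin (Tapbp) and the transactivator Nlrc5. Each of the 9 was present among the 19449 genes of the single-cell table and among the 55351 genes of the bulk table.

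A class I molecule is a heavy chain paired with beta-2 microglobulin and a short peptide, and it shows CD8+ T cells and NK cells a sample of the proteins being made and degraded in a cell. Peptides cut by the proteasome are pumped into the endoplasmic reticulum by the Tap1 and Tap2 heterodimer, tapasin holds the empty class I molecule beside the transporter, and loaded molecules move to the cell surface. Nlrc5 is a transactivator that joins transcription factors bound at class I promoters, and interferons raise nearly all genes of the pathway. Resting microglia carry little class I, and they are known to raise it in inflammation.

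EAE was induced by transfer of CD4+ T cells, reactive to a myelin oligodendrocyte glycoprotein peptide and polarized with IL-23, into wild-type C57BL/6 recipients that were young (8 to 12 weeks) or middle-aged (40 to 44 weeks). On day 6 or day 10 after transfer, CD45+ cells sorted from 4 pooled spinal cords gave 1 single-cell library per age and day, with 8315 to 10026 cells and 57337626 to 69859331 UMIs (unique molecular identifiers, each 1 counted RNA molecule). Spinal cord microglia of untreated mice of either age, the naive groups, were sequenced in bulk as 1 library per age, with 79373420 counts (young) and 76293436 counts (middle-aged). The sex of the pooled mice was not given in the labels, and no group had a second library.

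Cells carried the 16 cluster numbers deposited by the study, and clusters are named below only from marker genes. Cluster 10 was microglia-like, with 216 to 432 cells per library. Cluster 5 was monocyte/macrophage-like, 7 dendritic-like, 0 and 3 neutrophil-like, 2 T cell-like, 9 NK-like and 4 B cell-like, while 11 had basophil and dividing-cell genes in front and was left unnamed. Cluster 8, with 249 to 776 cells per library, expressed all 8 microglia markers and was led by genes such as Crybb1, C1qb and C1qa, complement and crystallin genes. It stays unnamed because none of the fixed markers was among its 10 leading genes and its median of 2059 UMIs per cell in the young day 6 library was under that of 6196 for the whole library by more than the limit set for a name. Cluster 1 expressed all 9 monocyte/macrophage markers, at a median log2 difference of 1.94 from the other clusters, and was led by Arg1 and Ccl24. It also stays unnamed, because none of those markers was among its 10 leading genes while the endothelial marker Flt1 was. In cluster 0 no neutrophil marker was among the 10 leading genes either, and the median log2 difference of these markers from the other clusters was -0.66. Its name rests only on their sum of 45774 CPM, the largest of its marker sums, and is tentative wherever it is used below. Of 37903 distinct barcodes, 154 occurred in more than 1 library. Cells are not replicates, so UMIs were summed per cluster and library, and the 11 clusters with at least 50 cells in every library were tested.

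The promoters are shown first, as a description only. In clusters 10 and 8, H2-K1, H2-D1, H2-Q7 and B2m were higher in both libraries of the later day than in both earlier ones. This held for none of the other members there. The sets were not general, since H2-D1 and B2m fell together with Tap1 in cluster 0. RefSeq (GRCm38.p6) had entries for 7 of the 9 genes, and the lines give the 200 bases before the start site, 5′ to 3′. They lie at chr17:34000348-34000547 (reverse strand), chr17:35262894-35263093 (forward strand), chr17:35438955-35439154 (forward strand), chr2:122147487-122147686 (forward strand), chr17:36032702-36032901 (reverse strand) and chr17:34187356-34187555 (forward strand). Tap2 and Nlrc5 had no entry.
H2-K1: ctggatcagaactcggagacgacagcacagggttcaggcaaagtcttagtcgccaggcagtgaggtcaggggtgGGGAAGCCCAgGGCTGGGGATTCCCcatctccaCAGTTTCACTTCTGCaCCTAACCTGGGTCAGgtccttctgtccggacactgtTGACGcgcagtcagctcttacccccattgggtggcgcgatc
H2-D1: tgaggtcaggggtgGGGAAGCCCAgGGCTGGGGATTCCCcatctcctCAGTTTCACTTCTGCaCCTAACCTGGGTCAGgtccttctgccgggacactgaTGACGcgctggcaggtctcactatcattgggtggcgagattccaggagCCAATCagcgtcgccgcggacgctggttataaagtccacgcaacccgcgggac
H2-Q7: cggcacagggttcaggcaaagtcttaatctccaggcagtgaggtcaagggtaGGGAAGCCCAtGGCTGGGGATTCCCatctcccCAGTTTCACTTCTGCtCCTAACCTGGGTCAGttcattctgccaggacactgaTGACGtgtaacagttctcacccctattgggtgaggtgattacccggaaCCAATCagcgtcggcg
B2m: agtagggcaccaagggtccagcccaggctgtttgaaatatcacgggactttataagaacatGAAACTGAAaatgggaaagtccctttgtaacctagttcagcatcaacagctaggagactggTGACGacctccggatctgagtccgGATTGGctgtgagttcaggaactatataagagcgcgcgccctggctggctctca
H2-T23: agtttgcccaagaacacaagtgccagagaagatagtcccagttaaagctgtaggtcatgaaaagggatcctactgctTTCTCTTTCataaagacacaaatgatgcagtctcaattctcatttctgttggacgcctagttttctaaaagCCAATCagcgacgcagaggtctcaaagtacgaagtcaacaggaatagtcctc
Tap1: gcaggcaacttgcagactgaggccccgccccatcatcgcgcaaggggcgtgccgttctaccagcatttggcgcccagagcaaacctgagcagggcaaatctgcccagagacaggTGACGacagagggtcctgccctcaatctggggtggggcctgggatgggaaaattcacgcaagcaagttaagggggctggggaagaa

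Capitals mark stretches of 10 or more letters that the H2-K1, H2-D1 and H2-Q7 windows share, and short motifs searched on both strands and chosen after the sequences had been read. The 3 heavy chain windows shared 4 stretches in the same order. GGCTGGGGATTCCC, which holds the letters known to bind NF-kB in the class I enhancer, began at -115, -175 and -137 from the start site and occurred in 5 of 32851 promoter entries (0.0152%). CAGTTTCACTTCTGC, which holds the interferon response letters of class I promoters, began at -93, -153 and -116 and occurred in 7 entries (0.0213%). GGGAAGCCCA (0.103% of entries) and CCTAACCTGGGTCAG (0.0152%) were the other two. GAAANNGAA, letters of the interferon-stimulated response element, occurred in B2m and H2-T23 and in 5.57% of all entries. TGACG, the core of the X2 box, occurred in H2-K1, H2-D1, H2-Q7, B2m and Tap1 and in 15.7%. GATTGG, the letters searched for the Y box, occurred in H2-D1, H2-Q7, B2m and H2-T23 and in 12.9%. The Tapbp window held none of these. The shorter ATTGG was not searched, and it stands unmarked after TGACG in the H2-K1, H2-D1 and H2-Q7 windows. The lack of GATTGG in H2-K1 therefore does not show that a Y box is missing there. No marked letters overlapped, and a match describes letters, not a bound site. The 4 shared stretches were defined from the 3 heavy chain windows, so their absence from B2m says nothing about the sets named above. TGACG also occurred in Tap1, and GATTGG also in H2-T23. A link between promoter letters and the changes in level was not tested.

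The heavy chains are close relatives, and reads can be assigned to the wrong one. Of the distinct 50-base stretches in the last 500 bases of their GENCODE M21 transcripts, 11.8% of those of H2-K1, 18.8% of H2-D1, 9.77% of H2-Q7 and 17.9% of H2-T23 also occurred in a transcript of another gene. Over whole transcripts, as bulk reads fall, the share for H2-Q7 was 26.4%, mostly with H2-Q10, H2-Q5 and H2-Q6. B2m, Tap2 and Nlrc5 shared none in that stretch, Tap1 1.41% and Tapbp 2.15%. For H2-T23 the genes sharing most in that stretch were H2-T-ps, Rab33b and Hook2. These shares describe sequence overlap and are not a rate of wrongly assigned reads, which was not measured. The heavy chain values are therefore uncertain to an unknown extent. H2-K1 lies at chr17:33996017-34000347, H2-D1 at chr17:35262730-35267499, H2-Q7 at chr17:35439155-35443773, B2m at chr2:122147686-122153083 and Nlrc5 at chr8:94434356-94527272 (GRCm38), each a protein-coding gene.

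Class I genes were expressed in every cluster, and the order of the clusters differed from gene to gene. Levels are in CPM, UMI counts scaled to a total of 1000000 for each cluster and library, as the mean ± SD over the 4 libraries, which differ in age and day. Orders are given among the 11 tested clusters. H2-D1 was highest in neutrophil-like cluster 0 (4672 ± 674) and lowest in the B cell-like cluster (1519 ± 46.3). H2-K1 was highest in the NK-like cluster (2935 ± 179), with clusters 1 (2918 ± 376) and 0 (2884 ± 159) not separated from it, and lowest in neutrophil-like cluster 3 (718 ± 233). Cluster 12, which was not tested, lay below both, with 931 ± 149 for H2-D1 and 473 ± 72.1 for H2-K1. H2-Q7 was again highest in the NK-like cluster (1056 ± 168), and there the SD ranges did not reach the next cluster, dendritic-like 7 (589 ± 200).

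Of the 9 members, 6 were highest in cluster 0. Tap2 stood at 357 ± 52.6 there, apart from the next cluster, 7 (226 ± 64.9). Nlrc5 stood at 160 ± 80.1 in cluster 0 and between 22.7 and 59.7 in the means of the other 10 clusters. B2m ran from 6224 ± 1782 in cluster 0 through 5155 ± 1098 in cluster 8 and 5049 ± 1472 in cluster 10 to 1628 ± 128 in the B cell-like cluster. Over all 16 clusters, 13 to 15 of the 15 pairs of neighbours in these orders overlapped within their SD, so most neighbours were not separated.

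**Figure D1:**
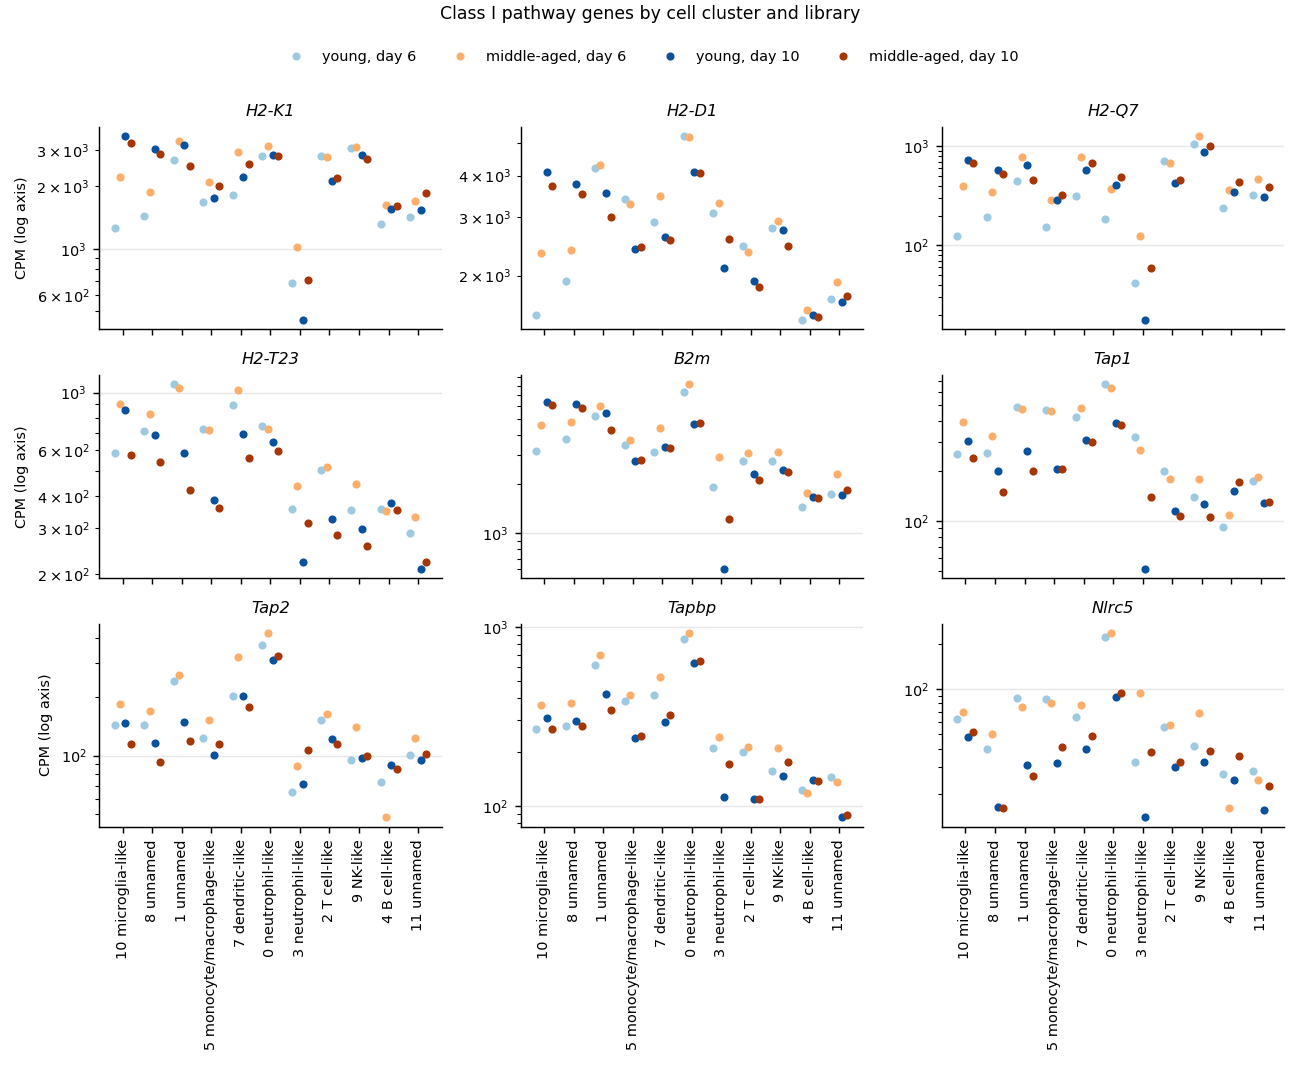
CPM (log axis) of the 9 genes in the 11 tested clusters, 1 point per library, coloured by age and day. In clusters 10 and 8 the day 10 points of H2-K1, H2-D1, H2-Q7 and B2m lie above the day 6 points, and Nlrc5 is highest in cluster 0.

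The balance of the classical heavy chains differed between clusters. Per UMI of H2-D1, there were 0.22 to 0.31 UMIs of H2-K1 in neutrophil-like cluster 3 and 0.53 to 0.69 in cluster 0. The ratio was 0.83 to 0.95 in cluster 10, 0.74 to 0.81 in cluster 8, and 1.04 to 1.11 in the NK-like and 1.10 to 1.19 in the T cell-like cluster. The ranges of the 4 libraries in cluster 3 and in the lymphoid clusters therefore did not meet.

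For each member the gene with the most similar profile over the 16 cluster means was found (Pearson r of log2 values, a description). H2-T22, another class I heavy chain, was nearest to H2-K1 (r = 0.98), Xaf1 to H2-D1 (0.92) and Tapbp (0.96), Plaat3 to H2-Q7 (0.95), and Ifi35 to H2-T23 (0.90) and Tap2 (0.91). Tapbpl, a tapasin relative, was nearest to B2m (0.92), Ogfr to Tap1 (0.96), and Dtx3l to Nlrc5 (0.95).

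In cluster 10 and in cluster 8 the levels of H2-K1, H2-D1, H2-Q7 and B2m were higher on day 10 than on day 6, past the test for all 4 in cluster 8 and for H2-Q7 in cluster 10. No loading gene was called higher in either cluster. Levels are again in CPM. H2-K1 in cluster 10 stood at 1261 CPM in the young library and 2220 in the middle-aged library of day 6, and at 3510 and 3225 on day 10. H2-D1 went from 1517 and 2336 to 4089 and 3731, and H2-Q7 from 125 and 399 to 730 and 686. B2m was at 3178 and 4585 on day 6 and at 6371 and 6065 on day 10. For each of these 4 genes both day 10 libraries lay above both day 6 libraries, and the young day 6 library was the lowest.

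The peptide transporter and tapasin showed no such separation in cluster 10. Tap1 stood at 251 (young) and 393 (middle-aged) on day 6 and at 301 and 239 on day 10, so the days overlapped. Tapbp was at 268 and 368 and then at 310 and 269. Nlrc5 was at 63.4 and 70.5 on day 6 and at 48.1 and 51.3 on day 10, lower on the later day. Per UMI of H2-K1, the cluster held 0.20 and 0.18 UMIs of Tap1 on day 6 and 0.086 and 0.074 on day 10. That fall was not particular to cluster 10. The ratio went from 0.18 and 0.17 to 0.066 and 0.052 in cluster 8. It went from 0.18 and 0.14 to 0.083 and 0.079 in cluster 1, and from 0.24 and 0.20 to 0.14 and 0.14 in cluster 0. Among the tested clusters it rose only in the B cell-like cluster, from 0.069 and 0.066 to 0.097 and 0.107.

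The day effect was tested over both ages with edgeR's quasi-likelihood test in each cluster, adjusted over all genes of that cluster (Benjamini-Hochberg). Of the 99 tests of a member in a cluster, 6 were called higher and 33 lower on day 10. Over all genes in the same clusters, 7.34% of tests were called higher and 8.72% lower. In cluster 10, H2-Q7 rose with a log2 fold change of 1.81 (SE 0.38, adjusted p = 0.014), where 3.17% of all genes rose. That call was lost without age in the model (1.57, adjusted p = 0.098) and with DESeq2 (1.81, adjusted p = 0.50), which called H2-D1 and H2-K1 instead (adjusted p = 0.019 and 0.036), and it held with RLE size factors, with library totals, with no filter on low counts, without cells of another lineage and in cells of 2000 or more UMIs (adjusted p from 2.2e-08 to 0.044). With edgeR, H2-D1 (1.2, SE 0.38, adjusted p = 0.078) and H2-K1 (1.16, SE 0.38, adjusted p = 0.090) missed the threshold, as did B2m (0.85, SE 0.41, adjusted p = 0.26). The fit left 1 residual degree of freedom, and the 2 ages serve as its replicates, so p-values measure only the spread between these libraries. Without the middle-aged day 6 or the middle-aged day 10 library the H2-Q7 value was 2.73 or 2.72, and without the young day 6 or young day 10 library it was 0.89 or 0.90, with no test possible.

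In cluster 8 all 4 genes passed the threshold. H2-K1 stood at 1435 and 1877 CPM on day 6 and at 3022 and 2859 on day 10, a log2 fold change of 1.12 (SE 0.14, adjusted p = 1.5e-05). H2-D1 rose by 1.04 (SE 0.14, adjusted p = 1.8e-05), H2-Q7 by 1.35 (SE 0.21, adjusted p = 0.00015) and B2m by 0.78 (SE 0.12, adjusted p = 0.00014). These are 4 of 9 members against 6.50% of all genes. Without 1 library, and so with no test, the H2-Q7 value was 0.88 (young day 6 left out), 0.92 (young day 10), 1.9 (middle-aged day 6) or 1.92 (middle-aged day 10). B2m was not called with DESeq2 (adjusted p = 0.12). Nlrc5 fell by 1.21 (SE 0.28, adjusted p = 0.0055), from 39.9 and 49.96 to 16.4 and 16.0, where 6.90% of all genes fell. The Nlrc5 value was -0.33 (adjusted p = 0.69) without cells carrying UMIs of another lineage, and its adjusted p was 0.40 with DESeq2. Tap1, Tap2, Tapbp and H2-T23 were not called, with log2 fold changes from -0.48 to 0.10, and that of Tapbp changed sign with library totals.

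Markers of monocytes and macrophages moved with day in cluster 8. The 9 markers summed to 1258 and 1984 CPM on day 6 and to 15123 and 17853 on day 10, while the 8 microglia markers summed to 5989 and 3921 and then to 2635 and 3194. In cluster 10 the same monocyte/macrophage sum was 2649 and 2641 on day 6 and 3665 and 4612 on day 10. When cells with 2 or more UMIs of these markers were left out, an alternative added after the data had been seen, 75 to 136 cells per library remained in cluster 8. H2-K1 then rose by 1.44 (SE 0.25, adjusted p = 0.049) and H2-Q7 by 1.72 (SE 0.26, adjusted p = 0.049), against 1.12 and 1.35 in all cells. In cluster 10 that choice left 138 cells in the young day 6 library and 10 to 16 in the others, under the minimum of 50 per library, so nothing is read from it there.

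Single cells of cluster 10 showed the same order of the libraries. The 4 heavy chains and B2m together had a median per cell of 52.3 UMIs in 10000 in the young and 94.9 in the middle-aged library of day 6, and 158 and 143 on day 10. In young mice the 10th percentile of day 10 (112) lay above the 90th percentile of day 6 (100.2). In middle-aged mice the days overlapped, with a 10th percentile of 99.9 on day 10 and a 90th percentile of 150 on day 6. With each cell thinned to 2000 UMIs, 12.9% of the young day 6 cells had a UMI of H2-Q7, 48.6% of the middle-aged day 6 cells, and 74.9% and 76.7% of the day 10 cells. Without thinning these shares were 35.6%, 84.3%, 97% and 97.6%, at median depths of 6931, 10000, 8674 and 8394 UMIs. Since all nucleated cells carry class I, no cell type gave a background for these shares.

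**Figure D2:**
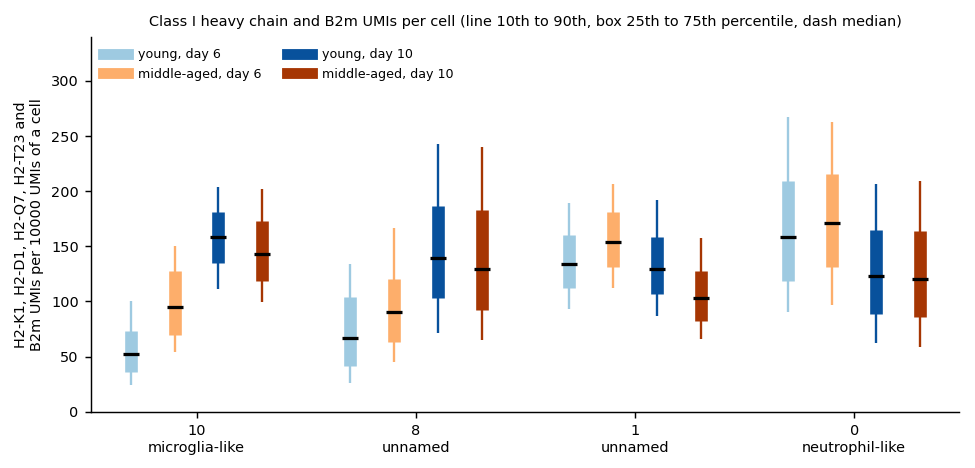
UMIs of H2-K1, H2-D1, H2-Q7, H2-T23 and B2m per 10000 UMIs of a cell in clusters 10, 8, 1 and 0. Lines span the 10th to 90th percentile, boxes the 25th to 75th, and dashes are medians. In cluster 10 the medians are 52.3 and 94.9 on day 6 and 158 and 143 on day 10.

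In 6 other clusters members of the pathway fell between the days, together with many other genes. In cluster 1, H2-T23 fell by 1.26 (SE 0.22, adjusted p = 0.00082) on the log2 scale, Nlrc5 by 1.67 (SE 0.19, adjusted p = 2.6e-05) and Tap1 by 1.23 (SE 0.21, adjusted p = 0.00089). Tap2 and Tapbp also fell, which made 5 of 9 members against 15.2% of all genes. The H2-K1 level there was 2695 and 3303 on day 6 and 3162 and 2510 on day 10, with overlapping days. In cluster 5, 7 of 9 fell (15.4% of all genes), in cluster 3 also 7 (13.2%), in the T cell-like cluster 3 (3.25%) and in cluster 7 it was 2 (4.55%). Several of these counts depended on the settings, and the all-gene shares are those of the main fit. Without cells carrying UMIs of another lineage, which left 36 to 435 cells per library and so fewer than 50 in the young day 10 library, cluster 5 kept 1 call, H2-T23, and Tap2 there stood at 0.086. In cluster 3 the count was 2 with DESeq2 and 1 without age in the model, and in cluster 7 it was 0 with DESeq2, without age and without cells of another lineage. Tap1 in the B cell-like cluster was the only call upward outside clusters 10 and 8 (log2 fold change 0.75, SE 0.19, adjusted p = 0.0061, with 1.03% of all genes higher), from 91.8 and 108 to 150 and 172. Its adjusted p was 0.081 with library totals. The NK-like cluster (2.24% of all genes called) and cluster 11 (2.19%) had 0 members called with edgeR and 1 each at an unadjusted p under 0.05. That unadjusted p was reached by 681 of 7002 genes in the NK-like cluster and 1148 of 9609 in cluster 11.

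In cluster 0, 8 of 9 members fell, and 27.3% of all genes fell there. This cluster depended on the scaling. TMM factors, which centre the bulk of the genes, moved its day effect by 0.76 on the log2 scale against library totals. Scaled by totals, 6 of its members fell, H2-Q7 rose (0.76, SE 0.15, adjusted p = 0.00017) while H2-K1 (-0.07, SE 0.12, adjusted p = 0.61) and H2-T23 (-0.24, SE 0.12, adjusted p = 0.084) were not called. Nlrc5 fell under both scalings, by 2.09 (SE 0.13, adjusted p = 9.9e-09) with TMM and by 1.33 (SE 0.13, adjusted p = 3.7e-08) with totals, from 221 and 237 to 88.0 and 93.7 CPM. In the other clusters the shift was 0.29 at most and changed the sign of no called member. With totals the calls were 4 lower in cluster 3, 6 lower in cluster 2, 4 lower in cluster 7, 6 lower and H2-Q7 higher in cluster 5, and unchanged in number in clusters 1, 8 and 10.

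The difference between cell types was then tested itself, a comparison added after the data had been seen, with the library as a block. Clusters 0 and 1 were taken as references after members had been seen to fall there, so the direction against them was known beforehand. The other tested clusters were not fitted. Against cluster 1, the day effect of cluster 10 was higher for 9 of 9 members, where 13.1% of all genes were higher, by 0.92 (Tap2, SE 0.17, adjusted p = 0.0037) to 2.11 (H2-Q7, SE 0.26, adjusted p = 0.00051). Cluster 8 was higher than cluster 1 for 8 of 9 (7.28% of all genes), with Nlrc5 at 0.41 (SE 0.28, adjusted p = 0.40). Against cluster 0, clusters 10 and 8 were each higher for 9 of 9 (17.5% of all genes for cluster 10 and 14.1% for cluster 8). Library totals in place of TMM moved the day effect by 0.76 in cluster 0, 0.17 in cluster 1, -0.15 in cluster 10 and -0.28 in cluster 8, and these differences were not refitted with totals. The smallest differences of cluster 8 over cluster 0 were 0.88 (Tap2, SE 0.21) and 0.99 (Nlrc5, SE 0.26). Those of cluster 10 over cluster 0 were 0.93 (Tap2, SE 0.22) and 1.12 (H2-T23, SE 0.25). Both counts of 9 against cluster 0 were therefore obtained with TMM only. Between clusters 10 and 8 no member was called (0 of 9 with edgeR, against 2.88% of all genes). The differences ran from -0.15 (Tapbp, SE 0.19) to 0.85 (Nlrc5, SE 0.28, adjusted p = 0.094). There was 1 member at an unadjusted p under 0.05, for which no all-gene share is given.

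**Figure D3:**
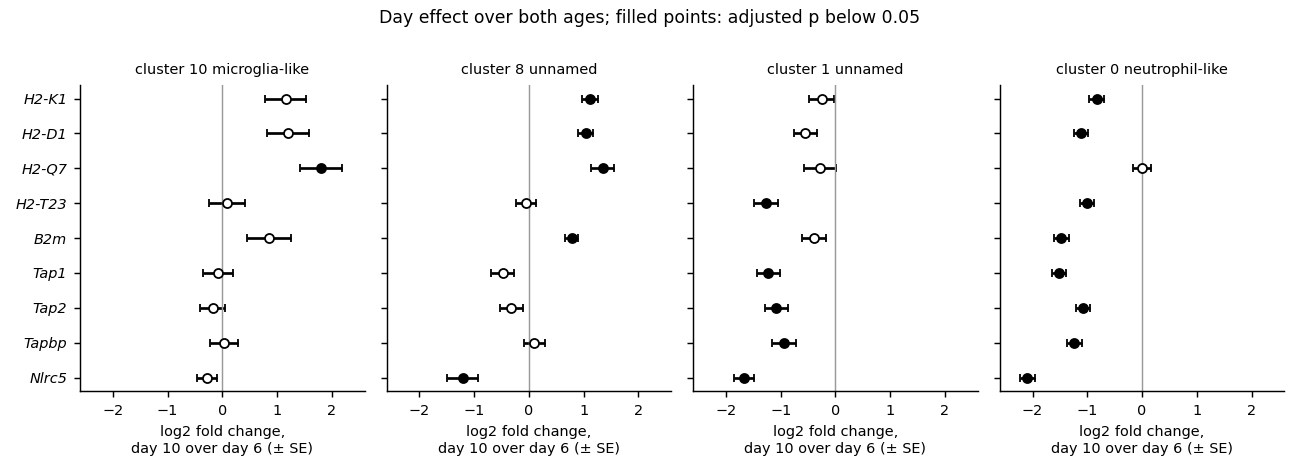
Log2 fold change of day 10 over day 6 (± SE, edgeR, both ages) of the 9 genes in clusters 10, 8, 1 and 0, filled where the adjusted p is below 0.05. H2-Q7 rises in clusters 10 (1.81) and 8 (1.35), and 8 of 9 genes fall in cluster 0 with TMM scaling.

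The other genes of the pathway, from lists chosen with earlier results known, were read beside the members. In cluster 10, 3 of 9 tested class I and class I-like chains rose (3.17% of all genes), namely Mr1 (2.16, SE 0.35, adjusted p = 0.0038), which presents microbial metabolites, H2-Q6 (1.31, SE 0.28, adjusted p = 0.014) and H2-M2. H2-M2 had 0 and 1 UMIs on day 6 and 29 and 24 on day 10, and cluster 8 had 0 and 1 and then 27 and 39. None of 9 further loading genes and none of 5 immunoproteasome genes was called in cluster 10, at medians of -0.22 and -0.07, where the median over all genes was near 0. Ciita, the class II relative of Nlrc5, rose (1.56, SE 0.37, adjusted p = 0.023), and Socs1, a feedback inhibitor of interferon signalling, fell by 0.94 (SE 0.23, adjusted p = 0.031).

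In cluster 8, Irf1 fell by 1.34 (SE 0.19, adjusted p = 4.1e-05), Stat2 by 1.28 (SE 0.27, adjusted p = 0.0026) and Socs1 by 1.69 (SE 0.28, adjusted p = 0.00022), which made 3 of 17 transcription factor and signalling genes (6.90% of all genes). Irf1 and Stat2 are transcription factors of interferon signalling. Of 9 class I and class I-like chains, 2 rose (6.50% of all genes), H2-M2 and Cd1d1 (2.54, SE 0.56, adjusted p = 0.0037), which presents lipids, and H2-Q10 fell by 2.20 (SE 0.32, adjusted p = 5.4e-05). Of 9 further loading genes 2 fell, Tapbpl by 0.82 (SE 0.22, adjusted p = 0.018) and the chaperone Hspa5 by 0.56 (SE 0.17, adjusted p = 0.032). The median of its 5 immunoproteasome genes was -0.22, with none called. Of its 4 tested class I ligands and receptors 2 rose (6.50% of all genes). They were Klrd1 (2.77, SE 0.53, adjusted p = 0.0011) and Pirb (0.98, SE 0.24, adjusted p = 0.0095). Klrd1 had 1 and 5 UMIs on day 6 and 71 and 30 on day 10. In clusters 0, 1 and 5, 5 of 5 immunoproteasome genes fell, and of 17 transcription factor and signalling genes 13, 8 and 9 fell, where 27.3%, 15.2% and 15.4% of all genes fell. In cluster 0 the 5 immunoproteasome genes fell by 0.78 to 0.96 with TMM, close to the 0.76 by which library totals shift that cluster, and these lists were not refitted with totals.

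The age comparison asked whether middle-aged recipients differ from young ones. Over both days, 1 of 99 tests was called with edgeR, where 0.332% of tests over all genes were called. At an unadjusted p under 0.05 there were 13 of 99. Over all genes, the share at that unadjusted p ran from 279 of 11362 in cluster 2 to 494 of 4523 in cluster 3. DESeq2 called 0 of 99. The call was H2-Q7 in neutrophil-like cluster 3, at 41.7 CPM in the young and 125 in the middle-aged library of day 6 and at 17.6 and 59.5 on day 10 (log2 fold change 1.71, SE 0.31, adjusted p = 0.047). In that cluster 0.707% of all genes were higher. Its UMIs were few, 23 and 79 on day 6 and 38 and 33 on day 10. The adjusted p was 0.13 with DESeq2, 0.21 with RLE size factors, 0.14 in cells of 2000 or more UMIs and 1.00 without day in the model. Nlrc5 in that cluster had a log2 fold change of 1.52 (SE 0.35, adjusted p = 0.084). The 11 neutrophil markers of cluster 3 summed to 157624 and 167560 CPM on day 6 and to 315349 (young) and 214547 (middle-aged) on day 10, and their part in the result was not tested.

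On single days each age is 1 library, so ratios carry 95% counting intervals only and no test. Counting intervals narrow as UMIs rise, and the all-gene shares include genes with as few as 10 UMIs. Members with many UMIs therefore leave 0 at smaller ratios than most genes, as with B2m at 10922 UMIs in cluster 10 of the young day 6 library. The shares beside the member counts are to be read with that limit. In cluster 10 on day 6, the middle-aged library had higher values for 8 of 9 members with intervals above 0, as had 13.1% of all genes. The log2 ratio was 1.68 for H2-Q7 (interval 1.51 to 1.84), 0.82 for H2-K1 (0.76 to 0.87), 0.65 for Tap1 (0.51 to 0.78), 0.62 for H2-D1 (0.57 to 0.68) and 0.53 for B2m (0.49 to 0.57). On day 10 it was the young library that was higher, with 8 of 9 intervals below 0 (7.0% of all genes). The ratios ran from -0.07 for B2m, -0.09 for H2-Q7, -0.12 for H2-K1 and -0.13 for H2-D1 to -0.20 for Tapbp, -0.34 for Tap1 and -0.35 for Tap2. H2-T23 went from 0.63 to -0.58, the widest swing of the 9 after H2-Q7.

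The day 6 difference stood beside other differences between the libraries. The microglia markers of cluster 10 summed to 10055 CPM in the young day 6 library and to between 6280 and 6583 in the other 3, and the neutrophil markers to 4555 in the young and 1341 in the middle-aged library of day 6. Without cells carrying UMIs of another lineage the median ratio of the 9 members on day 6 was 0.67, against 0.62 in all cells. Cluster 8 repeated the pattern at a smaller size. There 7 of 9 intervals lay above 0 on day 6 (7.06% of all genes), with H2-K1 at 0.39 (0.28 to 0.50), and 7 below 0 on day 10 (7.0%).

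The same direction on day 6 was seen beyond clusters 10 and 8 for some members more than for others. B2m was higher in the middle-aged library in 11 of 11 clusters on day 6 and H2-Q7 in 10 of 11, where 9.89% of all gene-by-cluster intervals lay above 0. H2-K1 was higher in 9 clusters, Tapbp in 7 and Tap2 in 6, each lower in 0. H2-D1 was higher in 6 and lower in 2, H2-T23 in 5 and 1, Tap1 in 3 and 3, and Nlrc5 in 2 and 1. On day 10, B2m was higher in 2 and lower in 4 clusters, and H2-Q7 was higher in 8 and lower in 3 (9.31% and 8.60% of all). In dendritic-like cluster 7, 9 of 9 members were higher on day 6 (13.9% of all genes), with H2-Q7 at 1.31 (1.23 to 1.40) and H2-K1 at 0.69 (0.65 to 0.73). In cluster 1 the median of the 9 was 0.11 on day 6, with 6 higher (13.4% of all genes) and 3 lower (32.9%), and -0.33 on day 10, with 9 lower (14.4% of all genes). In cluster 3, 9 of 9 were higher on day 10 (16.0% of all genes). All 11 clusters of a day come from the same 2 libraries, so they are not separate evidence, and with 1 library in each cell of the design an interaction of age and day could not be tested.

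**Figure D4:**
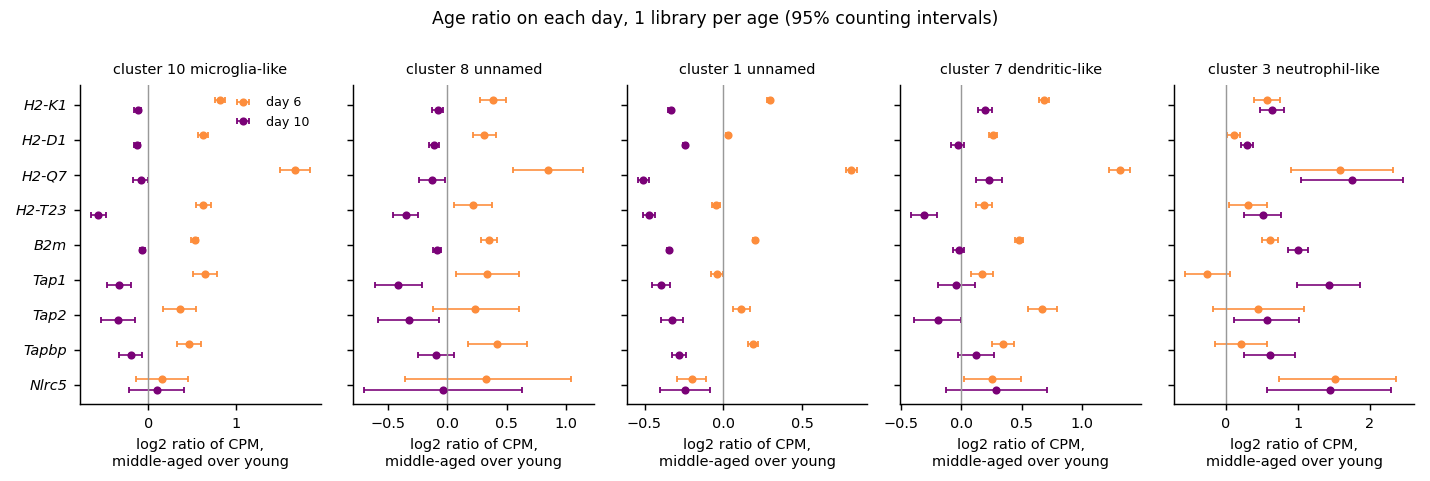
Log2 ratio of CPM, middle-aged over young, on day 6 and day 10 in clusters 10, 8, 1, 7 and 3, with 95% counting intervals and 1 library per age and day. In cluster 10, 8 of 9 day 6 intervals lie above 0 and 8 of 9 day 10 intervals below it.

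In naive microglia sequenced in bulk, the middle-aged library was higher in H2-K1, H2-D1, H2-Q7, B2m and Nlrc5, while H2-T23, Tap1 and Tap2 had intervals that included 0. H2-K1 stood at 463 CPM in the young and 557 in the middle-aged library, a log2 ratio of 0.27 (95% counting interval 0.25 to 0.29). H2-D1 was at 663 and 863 (0.38, 0.36 to 0.40), H2-Q7 at 12.9 and 18.7 (0.53, 0.42 to 0.65) and B2m at 1065 and 1217 (0.19, 0.18 to 0.21). Nlrc5 had the highest ratio, at 15.5 and 26.0 (0.75, 0.64 to 0.85).

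Tap1 (88.3 and 88.8), Tap2 (68.3 and 67.0) and H2-T23 (196 and 198) had intervals that included 0, and Tapbp was slightly lower (365 and 348, log2 ratio -0.07, -0.09 to -0.04). Past 1.5-fold there was 1 of 9 members, Nlrc5, where 4.81% of the genes with at least 100 counts were past it upward and 9.57% downward. The median of the 9 was 0.19 and that of all genes -0.01. With 1 library per age this has no replicate check. Endothelial markers were lower in the middle-aged library for 8 of 8 genes, with log2 ratios from -2.47 to -1.15, while the 8 microglia markers had a median of -0.11. Of 10 neutrophil markers with at least 100 counts, 6 had intervals above 0 and 1 below it, with a median of 0.16 and a range from -0.53 to 0.33. Of 9 monocyte/macrophage markers 3 were above and 4 below 0 (median -0.26), and of 7 dendritic cell markers 1 was above and 3 below (median -0.33). The 4 B cell markers with such counts were all below 0 (median -0.26). The part of other cells in the class I values was not tested, and in bulk fewer cells of a type and less RNA per cell cannot be told apart.

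Per kilobase of exon, so that genes can be compared, B2m led in the young naive library with 1238 CPM per kilobase, followed by H2-D1 (257), H2-K1 (158), Tapbp (100.5) and H2-T23 (67.8). Tap2 (18.1) and Tap1 (16.1) lay close together, and H2-Q7 (3.03) and Nlrc5 (1.82) were the lowest. The middle-aged library gave the same order for the first 5, with Nlrc5 at 3.06 and H2-Q7 at 4.39 at the low end.

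**Figure D5:**
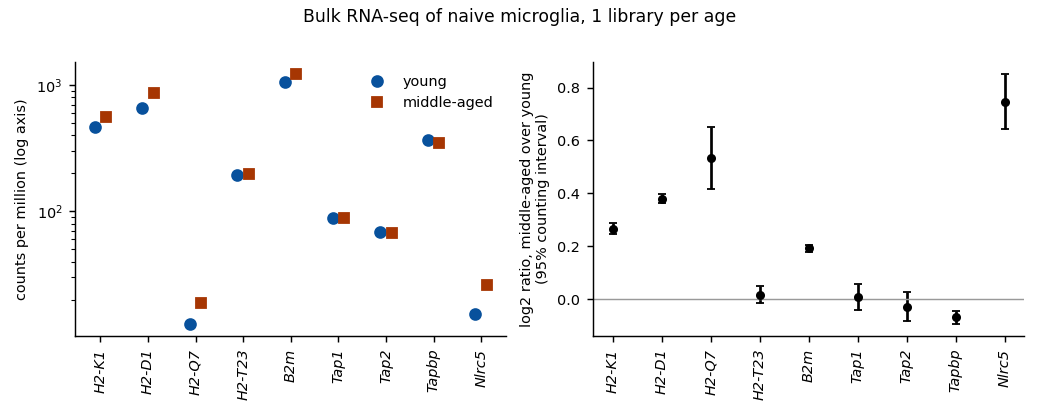
CPM (left, log axis) and log2 ratio of middle-aged over young with 95% counting intervals (right) of the 9 genes in bulk RNA-seq of naive microglia, 1 library per age. Nlrc5 (0.75) and H2-Q7 (0.53) have the highest ratios, and Tap1 and Tap2 lie at 0.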

How the data were processed

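Droplet libraries (10x Genomics chemistry version 3) were counted by the authors with Cell Ranger 3.1.0 against mm10 (Ensembl release 98). Per the study's methods, cells with under 200 genes, over 25000 reads or at least 10% mitochondrial reads were removed, and clusters come from a Seurat 4.0.4 integration. How doublets were treated is not given in the sources used here, and no doublet caller was run. The single-cell file deposited by the authors holds UMI counts, not normalized, for each gene in each cell, and the deposited bulk values are raw read counts per gene, made by the authors with fastp 0.20.0, HISAT2 2.1.0 and featureCounts (Subread 1.5.0-p2, unstranded, Ensembl release 99). In the bulk table, Gm26917 took 10.7% and 10.8% of the counts. Clusters were formed by the authors from the expression of these same cells.

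UMIs were summed per cluster and library. edgeR 4.0.16 (quasi-likelihood, age and day as terms, TMM, genes with at least 10 counts in 2 libraries, Benjamini-Hochberg) was run in 11 clusters and tested on simulated data, with DESeq2 1.42.0 as an alternative. Called means an adjusted p below 0.05. Differences between clusters were fitted with library as a block. All 99 tests of a member passed the filter on low counts. Ratios on 1 day and in bulk have exact conditional binomial intervals that cover counting error only, and all-gene shares use genes with 10 or more UMIs. Shares of cells have exact binomial intervals and thinning to 2000 UMIs. R 4.3.3, Python 3.11.15 and scipy 1.17.1 were used. All 9 members are named. Other listed genes are named only where they were called or led their list, and not every such gene is named. One gene of like pattern is not reported here. The members and lists were chosen with earlier results of these data known.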

Additional observations from a re-analysis of the deposited data

Results flagged for a closer look

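The direction of the age ratio turned between the days in several clusters. In cluster 10, 8 members were higher in the middle-aged library on day 6 and lower in it on day 10, with counting intervals on opposite sides of 0, namely H2-K1, H2-D1, H2-Q7, H2-T23, B2m, Tap1, Tap2 and Tapbp. In cluster 8 this held for 6 members (H2-K1, H2-D1, H2-Q7, H2-T23, B2m and Tap1) and in cluster 1 for 6 (H2-K1, H2-D1, H2-Q7, B2m, Tap2 and Tapbp). It held for 2 members in cluster 7 (H2-T23 and Tap2) and for 1 in cluster 2 (B2m). No member of the 11 clusters went the opposite way. Some of the ratios were small, as for H2-D1 in cluster 1, at 0.03 on day 6 and -0.24 on day 10. The difference between the days was not tested, since each age and day is 1 library, and the clusters of a day share their libraries.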

How the results depend on the processing

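No paired analysis was possible because every group has 1 library and the groups share only the number 1. The age count of 1 of 99 became 0 with RLE size factors, with DESeq2 and without day in the model, 2 with library totals and without cells of other lineages, and 5 without a filter on low counts. The day count of 39 ranged from 30 (DESeq2) to 44 (no filter), with 4 to 8 higher and 25 to 36 lower. All-gene shares under these other settings are not given, so the counts show only how the calls depend on the setting. In cluster 10, the 1 member higher on day 10 became 3 with no filter, 2 with DESeq2, 0 without age in the model and 4 without cells holding monocyte/macrophage markers, where 3 libraries kept 16 cells or fewer and nothing is read from it. The 2 of DESeq2 were H2-D1 and H2-K1. The cause was not tested. Leaving out a library gives values without a test, since no residual degrees of freedom remain. H2-Q7 in cluster 3 then ranged from 1.56 to 1.83 for age, H2-Q7 in cluster 10 from 0.89 to 2.73 for day, H2-K1 in cluster 10 from 0.65 to 1.66 and in cluster 8 from 0.89 to 1.42. For age in cluster 10, H2-K1 ranged from -0.13 to 0.86. Tap2 in cluster 5, lower on day 10, turned to 0.086 without cells of other lineages.

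Median age ratios on 1 day moved beyond their counting interval as follows. With log-normalized values averaged over cells, cluster 10 on day 6 gave 0.76, cluster 1 gave 0.054 on day 6 and -0.29 on day 10, cluster 3 on day 10 gave 0.23 and cluster 0 on day 6 gave 0.062. Without cells of other lineages, cluster 10 on day 10 gave -0.24, cluster 1 on day 6 gave 0.080 and cluster 7 on day 6 gave 0.55. With TMM scaling, cluster 1 on day 6 gave 0.24 and cluster 0 on day 6 gave 0.23. The bulk median stayed between 0.188 and 0.195. Cluster 11 had no fit without cells of other lineages. Depth limits Nlrc5 and H2-Q7 in cluster 3 to 79 UMIs or fewer per library.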
